A study of Mus musculus with 6 samples.

Results

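The 10 genes examined here encode the MHC class I loading pathway and its immunoproteasome: the heavy chains H2-K1 and H2-D1, the light chain B2m (beta-2 microglobulin), the peptide transporter subunits Tap1 and Tap2, the loading chaperone Tapbp (tapasin), the inducible proteasome subunits Psmb8, Psmb9 and Psmb10, and Nlrc5, a transactivator of class I genes. They were chosen by name for this function, with earlier results of these data known, and are 10 of 28162 genes in the table. All 10 passed the filter on low values, which left 17480 genes for testing. RNA came from lumbar spinal cord, ventral side, of SOD1G93A mice, a transgenic model of amyotrophic lateral sclerosis that carries a mutant human superoxide dismutase 1. One group had received an adeno-associated virus (AAV) carrying NDNF, a secreted neurotrophic glycoprotein, and the other an AAV carrying green fluorescent protein (GFP), both into the intrathecal space on postnatal day 74, with tissue taken on day 104. Each group held 3 libraries labelled as biological replicates. Both groups carried the mutant transgene and both had received a virus. The sources used here do not give the promoter of the vector or the sex of the animals.

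Class I molecules show peptides from inside the cell to CD8 T cells. Proteasomes cut proteins into these peptides, and under interferon the inducible subunits Psmb8, Psmb9 and Psmb10 take the places of the constitutive Psmb5, Psmb6 and Psmb7. The Tap1 and Tap2 heterodimer carries the peptides into the endoplasmic reticulum, where tapasin holds the transporter next to an empty pair of heavy chain and B2m until a peptide fits. In the mouse spinal cord, microglia and endothelial cells are known carriers of class I at rest, and motor neurons and glia have been described to carry it in SOD1-mutant animals.

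The reads assigned to genes came to between 15335789 and 20060987 per library. Ndnf, the delivered gene, stood at 5286, 7077 and 673.7 normalized counts in AAV-NDNF libraries 1 to 3, against 171.4, 128 and 158.1 in AAV-GFP libraries 1 to 3. All 3 AAV-NDNF libraries were above all controls, with library 3 the lowest of them. AAV-GFP library 2 stood apart in tissue content: its dorsal horn neuron markers summed to 1124 normalized counts, where the AAV-NDNF libraries held 1696 to 3296 and the highest control held 3162. Motor neuron markers, which the labelled ventral tissue should hold, summed to 6347 to 7329 in AAV-NDNF libraries and 6108 to 7419 in AAV-GFP libraries. Oligodendrocyte markers were highest in the same library. Values are normalized counts unless named otherwise. Fold changes compare AAV-NDNF over AAV-GFP as log2(value + 1) and come from limma, a linear-model test fitted to all tested genes, with Benjamini-Hochberg adjusted p-values.

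The class I heavy chains and B2m were lower in AAV-NDNF libraries, with means between 0.607 and 0.659 times those of the controls. H2-K1, a classical heavy chain, had 1336, 1250 and 1474 in AAV-NDNF libraries 1 to 3 and 2594, 1562 and 2519 in AAV-GFP libraries 1 to 3. H2-D1, the other classical heavy chain measured, had 2388, 2380 and 2840 in AAV-NDNF libraries and 4836, 3052 and 4650 in AAV-GFP libraries. For both heavy chains every AAV-NDNF library was below every control, and AAV-GFP library 2 was the control closest to them. The mean of H2-K1 was 1353 ± 113 in AAV-NDNF and 2225 ± 576 in AAV-GFP (SD, n = 3 each), a ratio of 0.608 and a log2 fold change of −0.68 (SE 0.18). The mean of H2-D1 was 2536 ± 264 against 4179 ± 981, a ratio of 0.607 and a log2 fold change of −0.70 (SE 0.17). Both had a limma adjusted p of 0.53 over all tested genes and so did not pass. The authors' deposited table, made with DESeq2, gives both an adjusted p under 0.05, 0.0163 for H2-D1 and 0.0356 for H2-K1, with a log2 fold change of −0.72 each.

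B2m, the light chain that every class I heavy chain pairs with, had 3261, 4025 and 4763 in AAV-NDNF libraries and 6771, 4186 and 7320 in AAV-GFP libraries. The groups overlapped through AAV-GFP library 2, which lay between AAV-NDNF libraries 2 and 3. Its mean was 4016 ± 751 in AAV-NDNF and 6092 ± 1674 in AAV-GFP, with a log2 fold change of −0.58 (SE 0.20, limma adjusted p = 0.914). H2-D1 held a near-constant proportion to H2-K1, with a count ratio of 1.79, 1.90 and 1.93 in AAV-NDNF libraries and 1.86, 1.95 and 1.85 in AAV-GFP libraries. The 2 heavy chains thus moved together from library to library, including in AAV-GFP library 2. They also resemble each other in sequence: of 100-base windows of the longest coding transcript, 0% for H2-K1 and 4.64% for H2-D1 recur in transcripts of another gene, and of 50-base windows 8.79% and 14.3%. The values of both are uncertain to that extent, because the sources used here do not say how reads matching several genes were handled. In bulk tissue, fewer cells of a type and less RNA per cell cannot be told apart.

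H2-K1 (chromosome 17, 33996017 to 34000347, minus strand, mm10), H2-D1 (chromosome 17, 35262730 to 35267499, plus strand) and B2m (chromosome 2, 122147686 to 122153083, plus strand) lie on separate stretches of the genome. Their promoters are shown because the 3 genes moved together and because they share a layout. The sequences are the 160 bases before the RefSeq start on GRCm38.p6, the build also named mm10, written 5′ to 3′ on the strand of the gene. The gene spans above come from GENCODE, which starts H2-D1 further upstream than RefSeq, so the H2-D1 stretch lies inside its GENCODE span. Capitals mark matches, on either strand, to TGACG (the X2 or CRE half-site), to CCAAT (the NF-Y box, read as ATTGG on the other strand) and to an interferon-regulatory factor motif, GAAANNGAA or GAANNGAAA. The form GAANNGAAA was added after the sequences had been read.
H2-K1 (chr17:34000348-34000507, minus strand): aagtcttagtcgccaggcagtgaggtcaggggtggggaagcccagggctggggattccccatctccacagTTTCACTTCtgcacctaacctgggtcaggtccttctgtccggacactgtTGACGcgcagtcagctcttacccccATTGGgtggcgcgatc
H2-D1 (chr17:35262934-35263093, plus strand): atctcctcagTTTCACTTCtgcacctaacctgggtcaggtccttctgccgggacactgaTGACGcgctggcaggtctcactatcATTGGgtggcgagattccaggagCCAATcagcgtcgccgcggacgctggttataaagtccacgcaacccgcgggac
B2m (chr2:122147527-122147686, plus strand): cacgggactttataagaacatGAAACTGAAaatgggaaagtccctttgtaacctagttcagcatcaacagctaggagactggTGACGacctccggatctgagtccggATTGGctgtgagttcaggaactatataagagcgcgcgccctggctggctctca
In each of the 3 promoters 20 bases separate the TGACG match from the ATTGG match that follows it. This pairing was noticed in these sequences, so its presence in the 3 genes was given in advance. The H2-K1 and H2-D1 stretches are also alike around it, and are not separate instances. It was present in 31 of 32851 promoters of 300 bases searched on both strands (0.0944%), a count that includes these 3 genes. H2-M3, another class I gene, was among the 24 genes outside the 10 that held it. Singly, TGACG occurred in 20.8% and CCAAT in 37.4% of all promoters. An interferon-regulatory factor match lay upstream of the pair in each, as GAAANNGAA in B2m (8.56% of all promoters) and as GAANNGAAA in H2-K1 and H2-D1 (7.52%). A match is a run of letters and not a measured binding site.

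**Figure D1:**
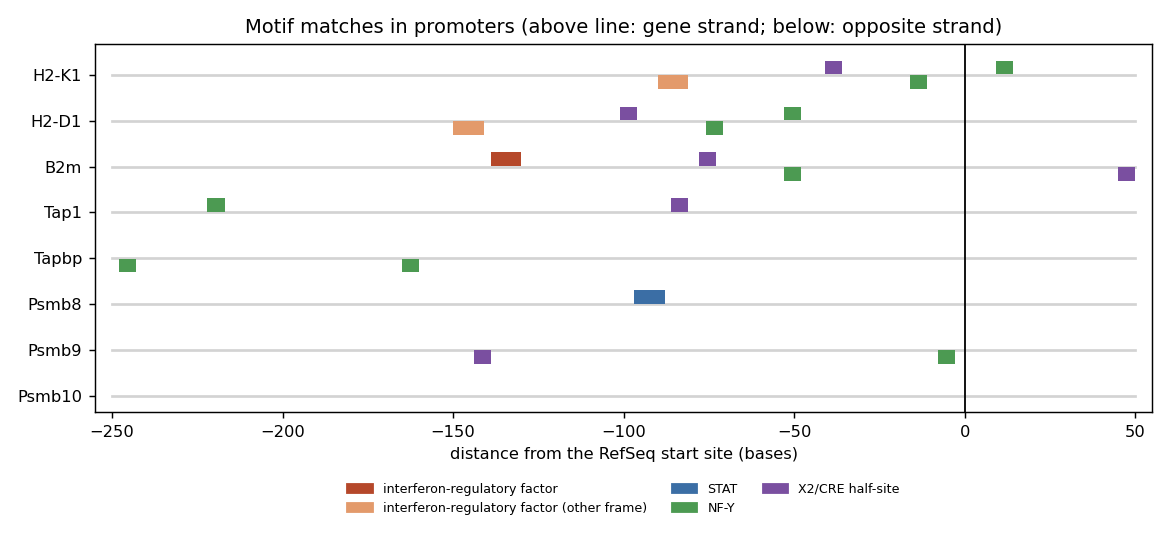
Positions of motif matches in the promoters of the 8 genes found in the RefSeq promoter table, from 250 bases before to 50 bases after the start site (x axis, bases); marks above a line are on the strand of the gene and marks below it on the other strand. H2-K1, H2-D1 and B2m share an interferon-regulatory factor match followed by an X2/CRE half-site and an NF-Y box 20 bases further on; for H2-K1 the first of its 2 listed starts is drawn.

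Of the transporter and its chaperone, Tap1 and Tapbp were lower in AAV-NDNF libraries at an unadjusted p under 0.05, and Tap2 was not. Tap1, the subunit whose loss in mice leaves little class I on the cell surface, had 251.5, 172.3 and 124.9 in AAV-NDNF libraries and 399.1, 218.9 and 387.7 in AAV-GFP libraries. AAV-GFP library 2 lay within the AAV-NDNF range, and AAV-GFP libraries 1 and 3 lay above it. The mean was 182.9 ± 64.0 in AAV-NDNF and 335.2 ± 101 in AAV-GFP, a log2 fold change of −0.88 (SE 0.28, limma adjusted p = 0.804). Tap2, the partner subunit, had 381.8, 292.8 and 317.7 in AAV-NDNF libraries and 424.9, 303.9 and 435.8 in AAV-GFP libraries. These groups overlapped as well, and the log2 fold change was −0.22 (SE 0.18, limma adjusted p = 0.997). It was −0.14 without AAV-NDNF library 2, −0.39 without AAV-GFP library 2 and −0.13 without AAV-GFP library 3. The log2 ratio of Tap1 to Tap2 was −0.60, −0.76 and −1.34 in AAV-NDNF libraries and −0.09, −0.47 and −0.17 in AAV-GFP libraries. Every AAV-NDNF library was below every control in this ratio, which was chosen after the values had been seen and was not tested.

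Tapbp had 1050, 866.1 and 959.6 in AAV-NDNF libraries and 1197, 1217 and 1241 in AAV-GFP libraries. It was the only one of the 10 genes for which AAV-GFP library 2 was not the lowest control, and its groups did not overlap. The mean was 958.7 ± 92.2 in AAV-NDNF and 1218 ± 22 in AAV-GFP, a log2 fold change of −0.35 (SE 0.11, limma adjusted p = 0.804). Of the merged exonic bases of Tapbp, 24.9% overlap the antisense gene Gm19412 in GENCODE M21, and 14.1% of those of Tap2 overlap Gm15821. The sources used here do not say whether the counting used strand, and both values are uncertain for that reason.

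The immunoproteasome subunits had fold changes of different size, and whether they differed from each other was not tested. For each of them AAV-GFP library 2 was the lowest control. Psmb8, which replaces Psmb5, had 124.5, 123.9 and 122.7 in AAV-NDNF libraries and 283.9, 120.2 and 313 in AAV-GFP libraries. The AAV-NDNF libraries and AAV-GFP library 2 were level, and the mean of the other 2 controls was 2.48 times AAV-GFP library 2. The log2 fold change of Psmb8 was −0.83 (SE 0.31, limma adjusted p = 0.955), and it was −1.26 without AAV-GFP library 2. Psmb9, which replaces Psmb6, had 84.11, 51.81 and 46.01 in AAV-NDNF libraries and 97.31, 56.68 and 118.6 in AAV-GFP libraries. Its groups overlapped, AAV-NDNF library 1 lay close to AAV-GFP library 1, and the log2 fold change was −0.56 (SE 0.33, limma adjusted p = 0.997). It was −0.86 without AAV-GFP library 2 and −0.34 without AAV-GFP library 3. Psmb10, which replaces Psmb7, had 324.6, 350.3 and 489.6 in AAV-NDNF libraries and 450.8, 317.6 and 543.7 in AAV-GFP libraries. Here AAV-GFP library 2 was the lowest of all 6 libraries and AAV-NDNF library 3 was above AAV-GFP library 1. The log2 fold change of Psmb10 was −0.16 (SE 0.21, limma adjusted p = 0.997). It was 0.013 without AAV-GFP library 3, so its sign rests on that library, and −0.37 without AAV-GFP library 2.

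The constitutive subunits that these 3 replace differed by less than the spread between libraries. Psmb5 averaged 471.3 ± 125 in AAV-NDNF and 459.5 ± 40.7 in AAV-GFP, Psmb6 averaged 1217 ± 294 against 1163 ± 94.0, and Psmb7 averaged 1762 ± 502 against 1767 ± 149. As a percentage of Psmb5, Psmb8 was 31.4%, 30.8% and 19.9% in AAV-NDNF libraries and 57.3%, 28.9% and 66.9% in AAV-GFP libraries. As a percentage of Psmb6, Psmb9 was 8.96%, 4.36% and 3.02% in AAV-NDNF libraries and 7.69%, 5.24% and 10.4% in AAV-GFP libraries. The Psmb8 and Psmb9 proportions were lowest in AAV-NDNF library 3 and highest in AAV-GFP library 3. For Psmb10 against Psmb7 the proportion was 21.2% to 24.4% in AAV-NDNF libraries and 19.6% to 30.7% in AAV-GFP libraries. Averaged over the 3 pairs, the log2 ratio of inducible to constitutive subunit was −2.39, −2.80 and −3.19 in AAV-NDNF libraries and −2.19, −2.79 and −1.84 in AAV-GFP libraries. The difference of −0.52 gave an exact two-sided permutation p of 0.2, where 3 against 3 libraries cannot go below 0.1.

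**Figure D2:**
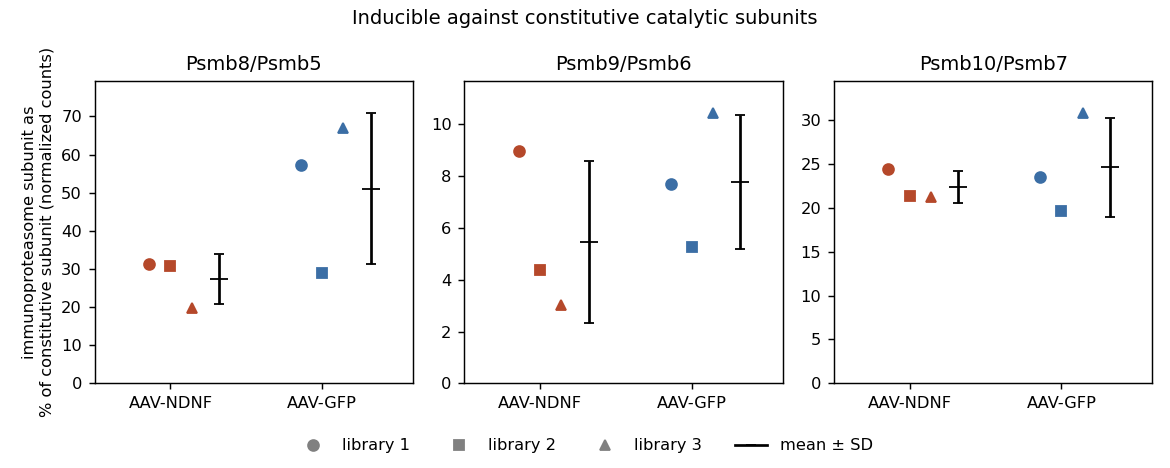
Each inducible subunit as a percentage of the constitutive subunit it replaces, in normalized counts (y axis), for the 3 AAV-NDNF libraries on the left and the 3 AAV-GFP libraries on the right of each panel; marker shapes are library numbers, and bars are the mean ± SD. For Psmb8 the AAV-NDNF libraries sit between 19.9% and 31.4%, beside AAV-GFP library 2 at 28.9%.

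Psmb9 (chromosome 17, 34181987 to 34187764, minus strand) and Tap1 (chromosome 17, 34187553 to 34197225, plus strand) are neighbours that point away from each other, and Psmb8 (34197721 to 34201454, plus strand) begins 495 bases after the end of Tap1. The first exons of Psmb9 and Tap1 overlap by 212 bases on opposite strands, 5.8% of the merged exonic bases of Psmb9 and 3.9% of those of Tap1. Of the longest coding transcript of Psmb9, 9.02% of 100-base windows and 12.5% of 50-base windows recur in Tap1. A part of their reads could thus not be told apart without strand. By the RefSeq starts, their promoters share 225 bases. The GENCODE span of Psmb9 given above runs past this stretch, so RefSeq and GENCODE place the Psmb9 start differently. The stretch is shown because both genes start from it in opposite directions in RefSeq. Both also had AAV-NDNF library 1 highest and library 3 lowest of that group.
Tap1 and Psmb9 (chr17:34187331-34187555, plus strand of GRCm38.p6, the orientation of Tap1): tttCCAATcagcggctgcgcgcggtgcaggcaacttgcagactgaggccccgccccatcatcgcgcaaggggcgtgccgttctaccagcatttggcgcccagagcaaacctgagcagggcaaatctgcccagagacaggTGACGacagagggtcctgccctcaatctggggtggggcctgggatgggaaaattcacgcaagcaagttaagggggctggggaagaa
The capitals mark the CCAAT match near the Psmb9 end and the TGACG match between the 2 RefSeq starts. Psmb8, in turn, held the only match to the STAT motif TTCNNNGAA among the 8 promoters (8.3% of all promoters), and no match to the other motifs. The antisense gene Gm20496 overlaps 14.7% of the merged exonic bases of Psmb8, whose value is uncertain to that extent.

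Nlrc5, the regulator, varied most within a group. It had 238, 143 and 47.1 in AAV-NDNF libraries and 311.6, 158.3 and 302.3 in AAV-GFP libraries. The AAV-NDNF libraries spanned a 5.05-fold range with library 3 lowest, the controls a 1.97-fold range with library 2 lowest, and AAV-GFP library 2 lay within the AAV-NDNF range. The log2 fold change was −1.06 (SE 0.55, limma adjusted p = 0.997), and it was −0.41 without AAV-NDNF library 3. That library had the lowest Nlrc5, Tap1, Psmb8 and Psmb9 of its group and the highest H2-K1, H2-D1, B2m and Psmb10. It was also the AAV-NDNF library with the least Ndnf. Its recovered reads of Nlrc5, 43, were the fewest in any library.

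**Figure D3:**
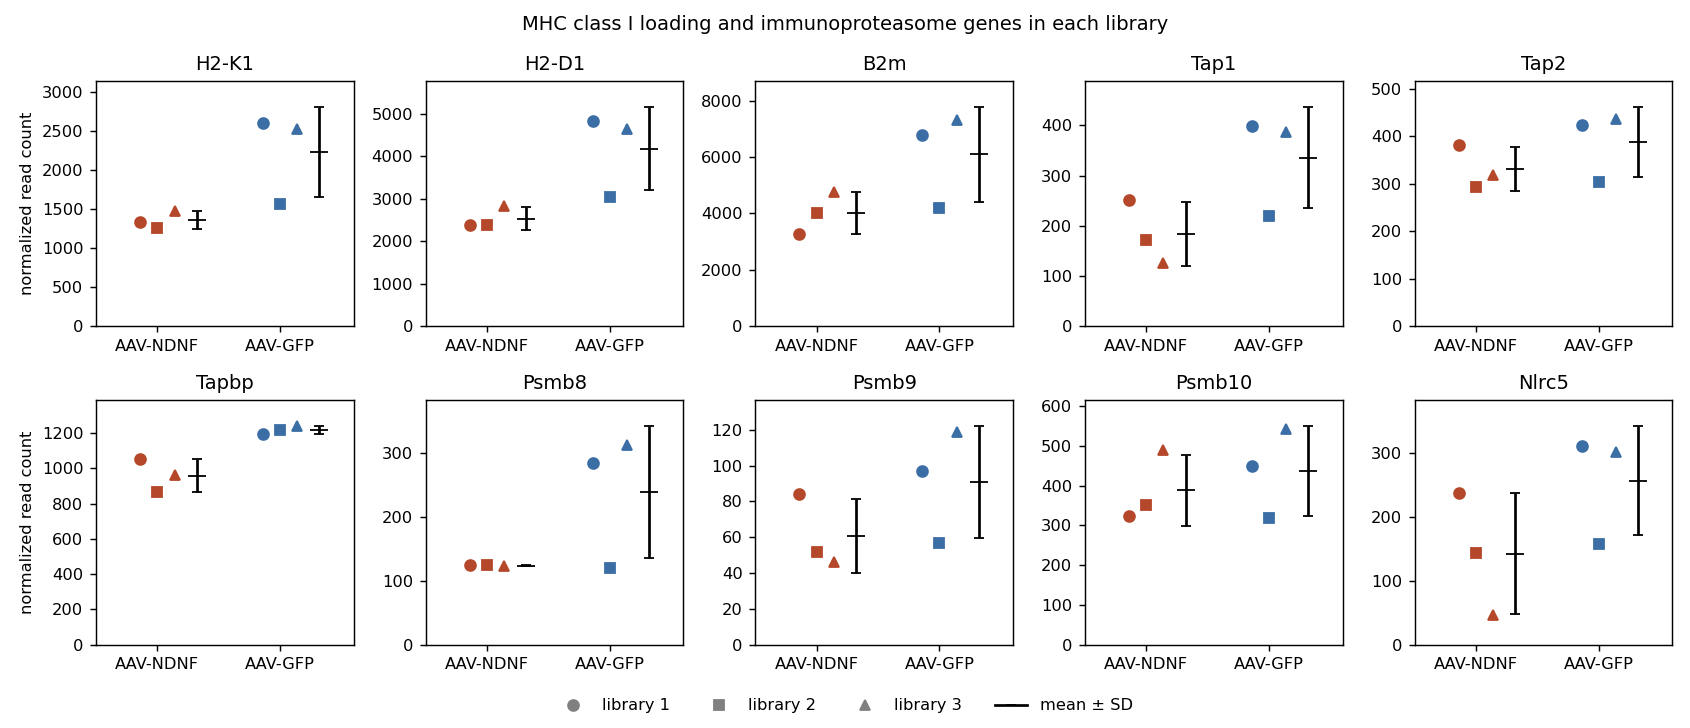
Normalized read counts (y axis, from 0) of the 10 genes in the 3 AAV-NDNF libraries (left of each panel) and the 3 AAV-GFP libraries (right); marker shapes are library numbers, and bars are the mean ± SD. AAV-GFP libraries 1 and 3 sit above the 3 AAV-NDNF libraries for every gene but Psmb10, and AAV-GFP library 2 sits near the AAV-NDNF libraries for every gene but Tapbp.

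Across the 10 genes the fold changes were all below 0, where 49.9% of tested genes were below 0, and their median was −0.63 against 0.00083 for all tested genes. Of the 10, 6 had an unadjusted limma p under 0.05 and were lower (H2-K1, H2-D1, B2m, Tap1, Tapbp and Psmb8), where 3.53% of tested genes were lower at that level. None of the 10 passed the adjusted limma test, nor did any of the 17480 genes tested (0% called, 818 genes at an unadjusted p under 0.05). On recovered reads, DESeq2 called 2 of the 10 lower (0.297% of genes with an adjusted p), limma-voom with quality weights 5 (0.904%), and edgeR's quasi-likelihood test called 0 genes, with 804 at an unadjusted p under 0.05. Of the 10, H2-K1 and H2-D1 were called lower in the authors' deposited table, where 0.246% of genes with an adjusted p were. For 3 genes (H2-K1, H2-D1 and Tapbp) every AAV-NDNF library was below every control, where 5.5% of tested genes showed this.

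The library pattern behind these counts was an uneven control group. For 8 of the 10 genes AAV-GFP libraries 1 and 3 were above each of the other 4 libraries, a pattern seen in 6.73% of tested genes. AAV-GFP library 2 was the lowest control for 9 of the 10, lay within the AAV-NDNF range for 5 and below that range for 2 (Psmb8 and Psmb10). Relative to the mean of all 6 libraries, the median log2 level of the 10 genes was −0.18, −0.36 and −0.20 in AAV-NDNF libraries and 0.54, −0.17 and 0.58 in AAV-GFP libraries. Without AAV-GFP library 2, limma called 3 of the 10 lower, where 0.246% of tested genes were: H2-K1 (adjusted p = 0.0285), H2-D1 (adjusted p = 0.0323) and Psmb8 (adjusted p = 0.0336). Over all alternatives the adjusted p ranged from 0.00207 to 1 for H2-K1, from 0.00128 to 1 for H2-D1 and from 0.0336 to 1 for Psmb8. Leaving out AAV-GFP library 1 or 3 instead gave no call among the 10.

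**Figure D4:**
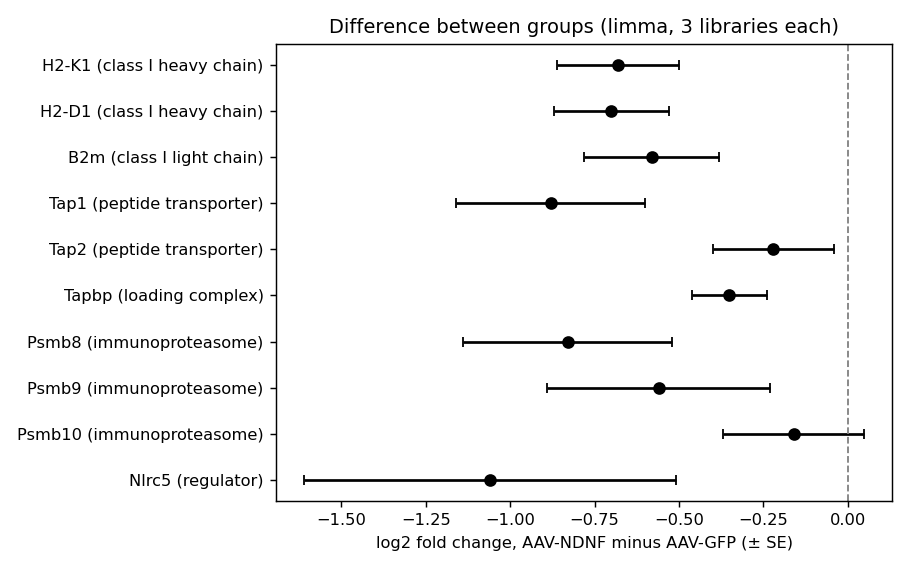
Log2 fold change of each gene, AAV-NDNF minus AAV-GFP (x axis), with bars of ± 1 SE from limma over 3 libraries a group; the dashed line marks 0. The points run from −1.06 for Nlrc5 to −0.16 for Psmb10, and the bar is widest for Nlrc5.

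Levels among the genes spanned a wide range per length. Per kilobase of the longest coding transcript, B2m averaged 4670 ± 873 normalized counts in AAV-NDNF and 7084 ± 1946 in AAV-GFP. H2-D1 came next (1206 ± 125 against 1988 ± 467) and then H2-K1 (836 ± 69.9 against 1374 ± 356), and the ranges of these 2 overlapped. Tapbp (331 ± 31.8 against 420 ± 7.61) and Psmb10 (296 ± 67.7 against 334 ± 86.7) formed the next overlapping pair. Below them Psmb8, Tap2, Tap1, Psmb9 and Nlrc5 each overlapped with the neighbour in the order, down to 18.8 ± 12.6 against 34.0 ± 11.3 per kilobase for Nlrc5. The immunoproteasome subunits thus did not share a level, since Psmb10 lay apart from Psmb8 and Psmb9. Per kilobase of merged exons, the order was the same but for Psmb8 and Tap2, and Psmb9 and Nlrc5, which traded places.

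The genes closest in library pattern to the 10 were Dtx3l, Kcnd3, 1600020E01Rik, Sp110 and Fkbp5. Closeness was the root mean square distance, over 6 libraries, from the median centred profile of the 10, among 14016 other genes with a mean of at least 50 normalized counts, whose median distance was 0.42 on the log2 scale. Dtx3l, a ubiquitin ligase that is known to be interferon-induced, was closest (0.093), with 250.6, 209.5 and 210.3 in AAV-NDNF libraries and 401.7, 246.3 and 435.8 in AAV-GFP libraries. Next came Kcnd3, a voltage-gated potassium channel (0.095), 1600020E01Rik (0.107), Sp110, an interferon-induced nuclear body protein (0.11), and Fkbp5, a glucocorticoid-induced co-chaperone of steroid receptors (0.121). Fkbp5 had 494.5, 430.2 and 547.7 in AAV-NDNF libraries and 999, 568.8 and 981.6 in AAV-GFP libraries. All 5 had AAV-GFP libraries 1 and 3 high and AAV-GFP library 2 near the AAV-NDNF libraries, which follows from how they were picked. Among the 10 themselves, whose own median is the common profile, H2-K1 (0.089) and H2-D1 (0.118) were closest to it and Nlrc5 (0.741) farthest.

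**Figure D5:**
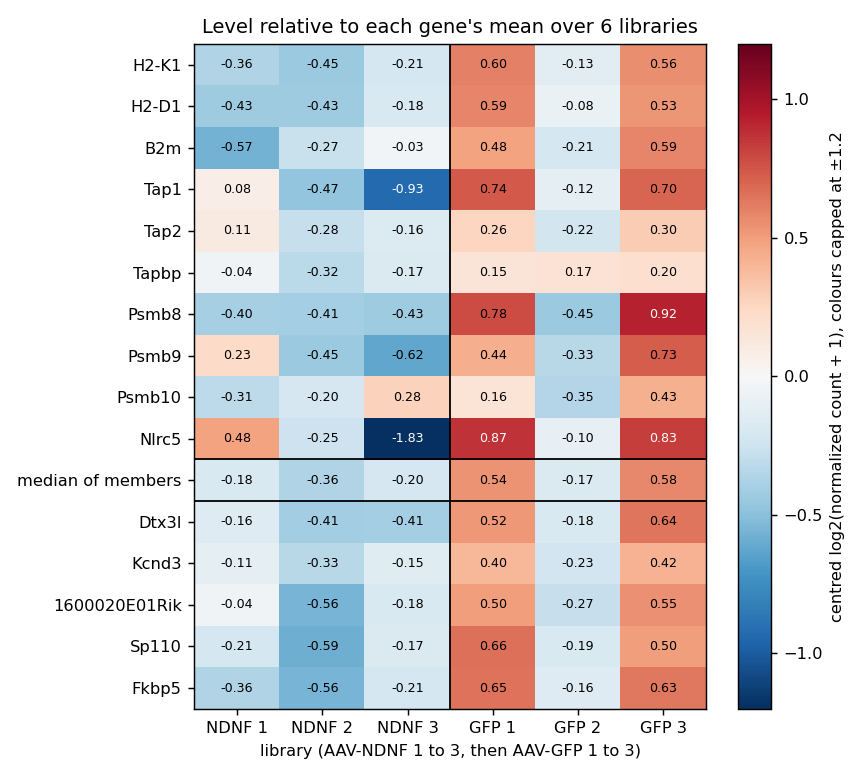
Level of each gene in each library relative to its own mean over 6 libraries, as centred log2(normalized count + 1) (colour and printed value), with AAV-NDNF libraries in the left columns and AAV-GFP libraries in the right; the lowest rows are the 5 genes of closest pattern. AAV-GFP libraries 1 and 3 stand out, with medians of 0.54 and 0.58 against −0.36 to −0.17 in the other libraries.

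Other class I genes were unevenly lower, and all those tested had overlapping groups, unlike H2-K1 and H2-D1. Of the 15 listed, 11 were tested, 10 had a fold change below 0, 4 were lower at an unadjusted limma p under 0.05, none was called, and the median log2 fold change was −0.62. At the other end, H2-T22, H2-Q2, H2-M3 and Mr1 had log2 fold changes between −0.19 and −0.15, and Cd1d1 one of 0.12, and these genes are named outside the rule, after their values were seen. H2-Q7 had 66.44, 79.96 and 44.91 in AAV-NDNF libraries and 186.6, 77.2 and 222.2 in AAV-GFP libraries, and H2-Q6 had 94.2, 68.7 and 28.48 against 207.1, 82.09 and 209.4. H2-T23 (Qa-1), which presents leader peptides of other class I chains to natural killer receptors, had 349.9, 265.8 and 316.6 in AAV-NDNF libraries and 624.9, 326.4 and 711.4 in AAV-GFP libraries. AAV-GFP library 2 lay within the AAV-NDNF range for all 3 of these genes. H2-Q6 and H2-Q7 are close relatives of each other and of H2-D1, and their values are uncertain for that reason.

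The general folding and trimming machinery that class I uses differed little. Of 8 genes, 6 were below 0, none had an unadjusted limma p under 0.05, and the median log2 fold change was −0.13. Uggt1, the glycoprotein folding sensor, averaged 984.7 ± 154 in AAV-NDNF and 1101 ± 34.1 in AAV-GFP, Erap1, which trims peptides for class I, 443.9 ± 36.1 against 494.4 ± 31.7, and calreticulin (Calr), a chaperone of the loading complex, 4460 ± 390 against 4827 ± 175. Of 7 proteasome activator and assembly genes, 3 were below 0 and none had an unadjusted p under 0.05. Those with the smallest p were Psme4 at 1024 ± 124 against 1100 ± 87.9, Psmg2 at 252.8 ± 35.2 against 227.7 ± 45.6, and Psmg1 at 138.9 ± 67.7 against 111.8 ± 15.0. The interferon-inducible activator subunits Psme1 (366.5 ± 80.9 against 401.7 ± 79.0) and Psme2 (233.7 ± 52.5 against 250.9 ± 67.5), picked for their role after the values were seen, also had differences within the spread between libraries. The translocon and transporter relatives Sec61a1, Abcb9 and Sec61b had log2 fold changes of −0.24, 0.17 and −0.03, none at an unadjusted p under 0.05.

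Of 14 interferon receptor and signalling genes, 12 were below 0, 4 were lower at an unadjusted limma p under 0.05, none was called, and the median log2 fold change was −0.26. Irf8, an interferon-regulatory factor of microglia and macrophages, had 421.4, 310.8 and 267.3 in AAV-NDNF libraries and 544.6, 481.8 and 512.7 in AAV-GFP libraries. Irf9, a DNA-binding part of the type I interferon response complex, had 390.2, 378.4 and 274.9 in AAV-NDNF libraries and 607.1, 445.6 and 599.2 in AAV-GFP libraries. For these 2 genes the groups did not overlap, and both had a higher AAV-GFP library 2 than any AAV-NDNF library. Of 12 factors that work with Nlrc5 or bind class I promoters, 10 were below 0, none had an unadjusted p under 0.05, and the median was −0.08. Those with the smallest p were Nfkb1 at 555.4 ± 52 against 673.4 ± 60.1, Creb1 at 668.3 ± 18.7 against 752.6 ± 35.4, and Nfyc at 560.1 ± 59.4 against 507.8 ± 9.85. The interferon genes themselves were not analysed here.

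Markers of cells that could carry class I moved in part with these genes. The 10 microglial markers were all below 0, 4 of them lower at an unadjusted limma p under 0.05, and their summed level was 13193 to 15068 in AAV-NDNF libraries and 17716 to 18215 in AAV-GFP libraries. AAV-GFP library 2, at 17847, was level with the other controls there, unlike for class I. The 10 T cell markers summed to 96.85 to 119.4 in AAV-NDNF libraries and 115.3 to 233 in AAV-GFP libraries, with AAV-GFP library 2 lowest of the controls. None was at 0 in all libraries, and of 4 tested, 3 were below 0. Trac, the highest of them in every library, averaged 52.6 against 61.63, and Lck 19.28 against 18.27. Markers too low to test, such as Cd3e (3.549 ± 2.14 against 12.83 ± 8.08) and Trbc2 (2.978 ± 0.682 against 10.36 ± 4.75), differed more in proportion, at few reads. Natural killer cell markers summed to at most 6.757 in AAV-NDNF and 17.09 in AAV-GFP libraries, and monocyte markers to at most 23.65 and 41.07. Border macrophage markers summed to 130.4 to 136.3 against 95.77 to 223.2, and the 8 endothelial markers to 4660 to 5969 against 5258 to 5889, so both overlapped. The part of these cell types in the class I differences was not tested.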

How the data were processed

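Per the labels, polyadenylated RNA was sequenced in 6 libraries, 3 from mice given AAV-NDNF and 3 from mice given AAV-GFP. Per the submitters' processing notes, cutadapt, HISAT2, HTSeq and DESeq2 and the build mm10 were used. The sources used here give no versions or annotation. The deposited columns hold a normalized signal, that is gene counts divided by 1 size factor per library by the authors, and 100% of values were whole multiples of 1 read (tolerance 0.001), so whole reads were recovered. The authors' deposited table also gives DESeq2 log2 fold changes, Wald scores and p-values.

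A gene entered the test if 3 or more libraries reached 10 normalized counts. The test was limma, with trended and robust variances, on log2(value + 1), two-sided, with Benjamini-Hochberg adjustment over all 17480 genes and a threshold of 0.05. Low genes have understated fold changes on this scale. The recovered reads, 42 to 7585 per library for the 10 genes, set the counting precision. The 10 genes and the gene lists were chosen with earlier results of these data known. Named list genes are the 3 with the smallest p of each list, and exceptions are stated. For 1 list, a gene that this rule names is not reported here. Coordinates, lengths and overlaps come from GENCODE M21 (mm10), which held all 10 symbols, and promoters from RefSeq (GRCm38.p6), which matched 8 of 10. The scripts were tested on simulated data. No pairing of the libraries by replicate number was seen. Alternatives covered scaling, filter, pseudocount, tool, a replicate block and leaving out each library. The tools were limma 3.58.1, DESeq2 1.42.0 and edgeR 4.0.16 in R 4.3.3, with matplotlib 3.10.9 for figures.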

Additional observations from a re-analysis of the deposited data

How the results depend on the processing

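Of the 10 genes, limma called 0, DESeq2 on recovered reads 2 (H2-K1 and H2-D1) and limma-voom with quality weights 5 (H2-K1, H2-D1, B2m, Tap1 and Tapbp). In the limma-voom fit all 10 had an unadjusted p under 0.05, against 6 in limma. That level was also reached by more genes over all, 2424 of 17480 in limma-voom against 818 in limma. The quality weights were 0.59, 2.45 and 0.407 for AAV-NDNF libraries 1 to 3 and 2.46, 0.442 and 1.56 for AAV-GFP libraries 1 to 3. Over all genes these fits called 55 (DESeq2) and 167 (limma-voom), against 0 in limma, and limma without a filter on low values called 3. Leaving out single libraries gave 0 to 3 calls among the 10, the 3 arising without AAV-GFP replicate 2, and 43 calls over all genes without that library. The log2 fold change of Psmb10 ran from −0.37 without AAV-GFP replicate 2 to 0.013 without AAV-GFP replicate 3, and the cause was not tested. No other gene of the 10 changed sign under any of 16 alternatives. The median log2 fold change of the 10 lay between −0.89 and −0.50 under all of them. Upper quartile scaling moved the median of all genes to 0.022. The inducible to constitutive ratio difference ran from −0.78 to −0.31 without single libraries, and was −0.50 with a pseudocount of 5. With the replicate block in limma none of the 10 was called and 6 genes were called over all, and the paired ratio difference was −0.52 (exact sign-flip p = 0.25, the smallest possible). Deviations of same-numbered libraries correlated at −0.09, 0.048 and 0.08, so no pairing by number was seen. With 3 libraries a group, an exact permutation test cannot go below 0.1.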

Other observations

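Class II genes, the route that shows extracellular peptides to CD4 T cells, shared only a part of the class I library pattern. Of 7 genes, 6 had a log2 fold change below 0 and none had an unadjusted limma p under 0.05. Ciita, the class II counterpart of Nlrc5, had 67.28, 36.04 and 48.2 in AAV-NDNF libraries and 34.82, 23.45 and 38.45 in AAV-GFP libraries (log2 fold change 0.62, limma adjusted p = 0.997). H2-Ab1, a class II beta chain, had 251.5, 51.81 and 19.72 in AAV-NDNF libraries and 197.3, 113.4 and 210.4 in AAV-GFP libraries. Cd74, the invariant chain, had 735.9, 307.5 and 147.9 against 643.7, 351.8 and 760.5. For both genes AAV-GFP library 2 was the lowest control and lay within the AAV-NDNF range, as for B2m and Tap1. AAV-NDNF library 1 was as high as the controls for both, and library 3 was lowest of all. Nlrc5 also followed this order within the AAV-NDNF group. Whether class I and class II differed from each other was not tested.

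Genes listed as class I receptors or their relatives were mostly too low to test in this tissue. Of 9 listed, 3 were tested, all 3 at an unadjusted limma p under 0.05 and lower in AAV-NDNF libraries, and none was called. Lilrb4a, an inhibitory immunoglobulin-like receptor of myeloid cells, had 83.26, 68.7 and 65.72 in AAV-NDNF libraries and 119.6, 108.5 and 107.9 in AAV-GFP libraries. Whether Lilrb4a binds class I was not examined. Pirb, an inhibitory receptor for class I, had 23.55, 12.39 and 24.1 in AAV-NDNF libraries and 33.03, 61.57 and 32.04 in AAV-GFP libraries. For both, every AAV-NDNF library was below every control, and AAV-GFP library 2 did not stand with the AAV-NDNF libraries. Cd8a, the co-receptor that T cells use to bind class I, had 20.19, 0 and 4.382 in AAV-NDNF libraries and 32.14, 9.773 and 28.84 in AAV-GFP libraries. These values rest on 0 to 36 recovered reads per library.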
